A study of Mus musculus with 8 samples.

Results

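The 10 genes described here were Fasn, Acaca, Acly, Scd1, Elovl6, Me1, Thrsp, Pnpla3, Dgat2 and Gpam, which make fatty acids from acetyl-CoA, supply the precursors and reducing power for that, or place fatty acids on glycerol. They were chosen by name, as genes of de novo lipogenesis and triacylglycerol synthesis, and make up 10 of the 18820 genes with a measurement. Each gene was read from the probe set with the highest mean among those annotated to that gene alone, and all 10 had such a probe set. RNA of the epididymal fat pad, a visceral white adipose depot, was measured on Affymetrix whole-transcript arrays with 1 array per mouse. The groups were 4 WT mice and 4 Sucnr1-/- mice, which lack the receptor for extracellular succinate in the whole body because part of its second exon was exchanged for an IRES, lacZ and neo cassette. All were male offspring of heterozygote intercrosses on a C57BL/6 background, fed a semi-synthetic low fat diet (LFD) for 16 weeks from an age of 8 to 10 weeks and killed at 24 to 26 weeks. Per the study's methods plasma metabolites were assayed after fasting, and blood was drawn before the mice were killed and the fat pad was removed. The same methods place a glucose tolerance test, with a fast and injected glucose, at the end of week 16. The main text gives no interval between that test and tissue collection. No separate statement on feeding before tissue collection was used here, and no refed, insulin-treated or high fat group was on these arrays. The question put to the 10 genes was whether the lipogenic programme of the fat pad differed between genotypes on the LFD.

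In de novo lipogenesis, citrate leaves the mitochondrion and is split in the cytosol to acetyl-CoA, which is carboxylated to malonyl-CoA and then built into palmitate with electrons from NADPH. Palmitate is elongated and desaturated, and the acyl chains are esterified to glycerol 3-phosphate in steps that end in triacylglycerol. In adipocytes and hepatocytes these genes are known to be raised together by feeding and insulin, largely through SREBP-1c and ChREBP, and lowered by fasting. The fat pad is a bulk sample, so fewer cells of a type and less RNA per cell cannot be told apart.

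The start sites of 8 of the 10 genes were matched in RefSeq (GRCm38.p6), and the 250 bases upstream of the start are shown for Fasn, Pnpla3 and Thrsp, the members with the largest positive differences, and for Acly, the member with the most negative. Capitals mark the CCAAT box (CCAAT) and the GC box (GGGCGG), read on both strands so that ATTGG and CCGCCC are marked as well; these motifs are known to bind NF-Y and Sp1, partners of SREBP. The Fasn window is chr11:120824548-120824797, the Pnpla3 window chr15:84167566-84167815, the Thrsp window chr7:97417551-97417800 and the Acly window chr11:100528001-100528250. Pnpla3 is on the plus strand and the others are on the minus strand, and each sequence is written along its gene.
Fasn: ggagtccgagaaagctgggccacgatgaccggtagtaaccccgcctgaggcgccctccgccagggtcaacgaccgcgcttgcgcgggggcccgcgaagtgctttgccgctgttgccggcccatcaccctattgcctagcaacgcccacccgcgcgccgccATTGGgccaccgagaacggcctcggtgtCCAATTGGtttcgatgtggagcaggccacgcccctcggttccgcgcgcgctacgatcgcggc
Pnpla3: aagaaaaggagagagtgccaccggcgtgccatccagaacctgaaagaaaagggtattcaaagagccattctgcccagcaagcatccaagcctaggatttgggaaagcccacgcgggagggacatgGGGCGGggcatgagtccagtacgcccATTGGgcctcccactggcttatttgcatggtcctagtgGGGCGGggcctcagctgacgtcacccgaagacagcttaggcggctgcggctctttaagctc
Thrsp: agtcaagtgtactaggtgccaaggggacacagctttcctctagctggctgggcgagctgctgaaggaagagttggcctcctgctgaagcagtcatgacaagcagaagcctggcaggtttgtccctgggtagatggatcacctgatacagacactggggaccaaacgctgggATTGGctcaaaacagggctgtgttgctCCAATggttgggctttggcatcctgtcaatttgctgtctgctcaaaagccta
Acly: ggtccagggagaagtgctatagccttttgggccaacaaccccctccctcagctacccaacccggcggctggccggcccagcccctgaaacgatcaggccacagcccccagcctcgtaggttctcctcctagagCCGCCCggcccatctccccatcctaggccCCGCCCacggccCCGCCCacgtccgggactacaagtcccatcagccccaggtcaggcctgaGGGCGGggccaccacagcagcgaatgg
The Fasn window held 3 CCAAT matches, with first bases 90, 62 and 59 bases before the start. Those at 62 and 59 overlap on opposite strands of the same stretch, CCAATTGG. The Thrsp window held 2 CCAAT boxes, at 79 and 52. Pnpla3 held 1 CCAAT box at 99 between GC boxes at 125 and 61, whereas Acly held 4 GC boxes, at 117, 88, 76 and 27, and no CCAAT letters. Among the 10 windows of the 8 members (Me1 and Gpam have 2 start sites each), 5 held a CCAAT box and 4 a GC box, against 33.8% and 32.7% of all 32851 windows of the same length, and no base belonged to both motifs. Neither the E-box CACGTG nor the letters TCACNCCAC of a sterol regulatory element were found in any of the 10, where 6.02% and 1.05% of all windows held them. These matches describe letters in a short window and say nothing of which factor was bound in these mice.

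The deleted gene was read before the members. Sucnr1 expression was 8.68, 8.97, 9.38 and 9.78 on the log2 scale in WT mice 1 to 4 and 6.02, 6.05, 5.41 and 7.11 in Sucnr1-/- mice 1 to 4. Every knockout mouse lay below every WT mouse, by −3.05 on average (SE 0.36), with an exact permutation p of 0.0286, the smallest that 4 against 4 allows, although the p that limma adjusted over all genes was 0.321. Array medians lay between 6.28 and 6.36 and no pair of arrays held identical values. At an adjusted p under 0.05, limma called 0 of the 18820 genes (0%), so no gene named here is said to have risen or fallen. Counts at an unadjusted p are given instead, beside the share of all genes that reached it: 3.46% with a higher and 3.36% with a lower mean in Sucnr1-/- mice.

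Of the 10 lipogenic genes, 7 had a higher mean in Sucnr1-/- fat, where 53.2% of all genes did, and 3 had a lower mean. Pnpla3 and Fasn had an unadjusted limma p under 0.05 with a higher mean, and 0 members did so with a lower mean. Pnpla3 kept an unadjusted p under 0.05 in 17 of 18 alternative settings, and Fasn, whose p lay just under that threshold, in 9 of 18. Thrsp reached it with a higher mean in 2 settings, and Acaca in 2 and Acly in 1 with a lower mean. The settings reuse the same mice and are not independent. For Pnpla3 and Fasn, with 1 probe set each, averaging probe sets left the values unchanged. Exact permutation, with p of 0.0857 for Pnpla3 and 0.114 for Fasn, was not among the settings. None of the 10 separated the genotypes without overlap, a pattern that 2.37% of all genes showed with the knockout mice above and 1.87% with the knockout mice below. The median difference of the members was 0.04, against 0.01 over all genes. The members did not move as a block: differences of 0.30 and above in Pnpla3, Fasn and Thrsp stood beside negative ones in Acaca and Acly, and beside differences within 0.05 of 0 in Scd1, Dgat2, Elovl6 and Gpam.

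**Figure D1:**
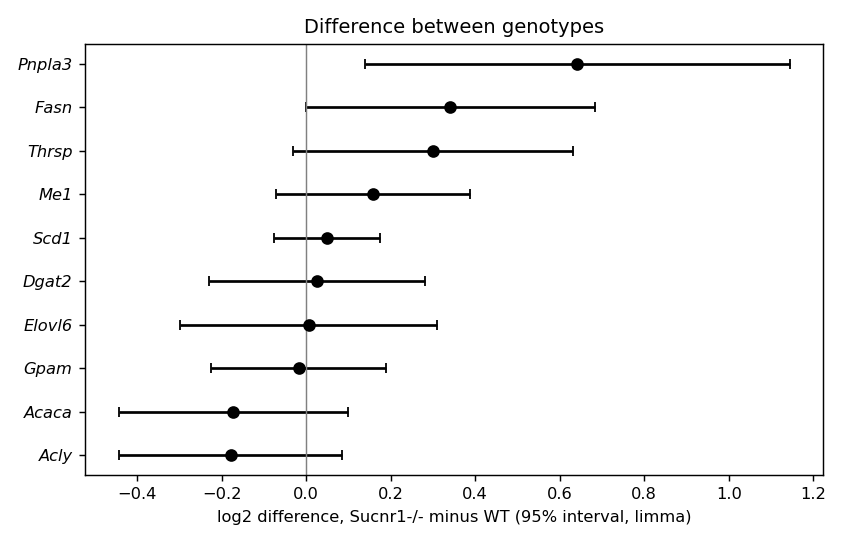
The log2 difference of each of the 10 genes, Sucnr1-/- minus WT, with points for the difference of means over 4 mice a group and bars for its 95% limma interval. Pnpla3 (0.64) is farthest to the right, the interval of Fasn ends at 0, and the other 8 intervals span 0.

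The steps before fatty acid synthase came first. Acly encodes ATP citrate lyase, which splits cytosolic citrate to acetyl-CoA. Its expression was 10.30, 10.38, 9.92 and 10.11 in the WT mice and 10.21, 9.90, 9.94 and 9.94 in the Sucnr1-/- mice. Knockout mouse 1 stood apart from the other 3, which lay at the low edge of the WT range, and 1 of them lay just below it. The difference was −0.18 (SE 0.12, 95% interval −0.44 to 0.09; limma, adjusted p = 0.746). It was −0.11 without WT mouse 2 and −0.26 without WT mouse 3. Acaca encodes acetyl-CoA carboxylase 1, which makes malonyl-CoA, the committed step of the pathway. Its values were 10.59, 11.13, 10.90 and 11.04 in WT and 10.85, 10.60, 10.80 and 10.72 in Sucnr1-/- fat. All knockout mice lay within the WT range, above WT mouse 1 and below the other 3, with a difference of −0.17 (SE 0.12, 95% interval −0.44 to 0.10; limma, adjusted p = 0.752). It was −0.28 without WT mouse 1 (limma, unadjusted p = 0.0115) and −0.10 without WT mouse 2. The dimmer of its 2 probe sets gave a difference of −0.07, from a mean of 10.22 in WT and 10.16 in Sucnr1-/- mice.

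Me1 encodes cytosolic malic enzyme, a source of the NADPH that fatty acid synthase uses. It was expressed at 10.90, 11.27, 11.23 and 11.39 in WT and at 11.35, 11.41, 11.36 and 11.31 in Sucnr1-/- mice. The knockout mice lay within 0.10 of each other, near the top of a WT range that WT mouse 1 extended downwards. The difference was 0.16 (SE 0.10, 95% interval −0.07 to 0.39; limma, adjusted p = 0.743), and the second probe set gave 0.14. Without WT mouse 1 the difference was 0.06.

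Fasn encodes fatty acid synthase, the multienzyme that assembles palmitate. Its expression was 10.999, 11.66, 11.26 and 11.66 in WT mice 1 to 4, with a mean of 11.39 ± 0.32 (SD, n = 4). In Sucnr1-/- mice it was 11.60, 11.82, 11.82 and 11.70, with a mean of 11.74 ± 0.11 (SD, n = 4). WT mice 2 and 4 were close to the knockout mice and WT mice 1 and 3 were well below them, so that 3 of 4 knockout mice exceeded the highest WT mouse by a small margin. The difference was 0.34 (SE 0.15, 95% interval 0.00058 to 0.68), or 26.7% on the linear scale (limma, adjusted p = 0.719), and the exact permutation p was 0.114. It remained positive but fell to 0.21 without WT mouse 1, and was 0.43 without WT mouse 2 or without WT mouse 4. Thrsp, or Spot 14, is a nuclear and cytosolic protein that tracks lipogenic rate and is known to modulate fatty acid synthesis. Its values were 11.002, 11.60, 10.86 and 11.08 in WT and 11.35, 11.48, 11.46 and 11.46 in Sucnr1-/- fat. WT mouse 2 was the highest of all 8 and the other WT mice were lower than every knockout mouse, so all 4 knockout mice lay inside the WT range. The difference was 0.30 (SE 0.15, 95% interval −0.03 to 0.63), or 23.2% (limma, adjusted p = 0.719), and it was 0.46 without WT mouse 2.

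**Figure D2:**
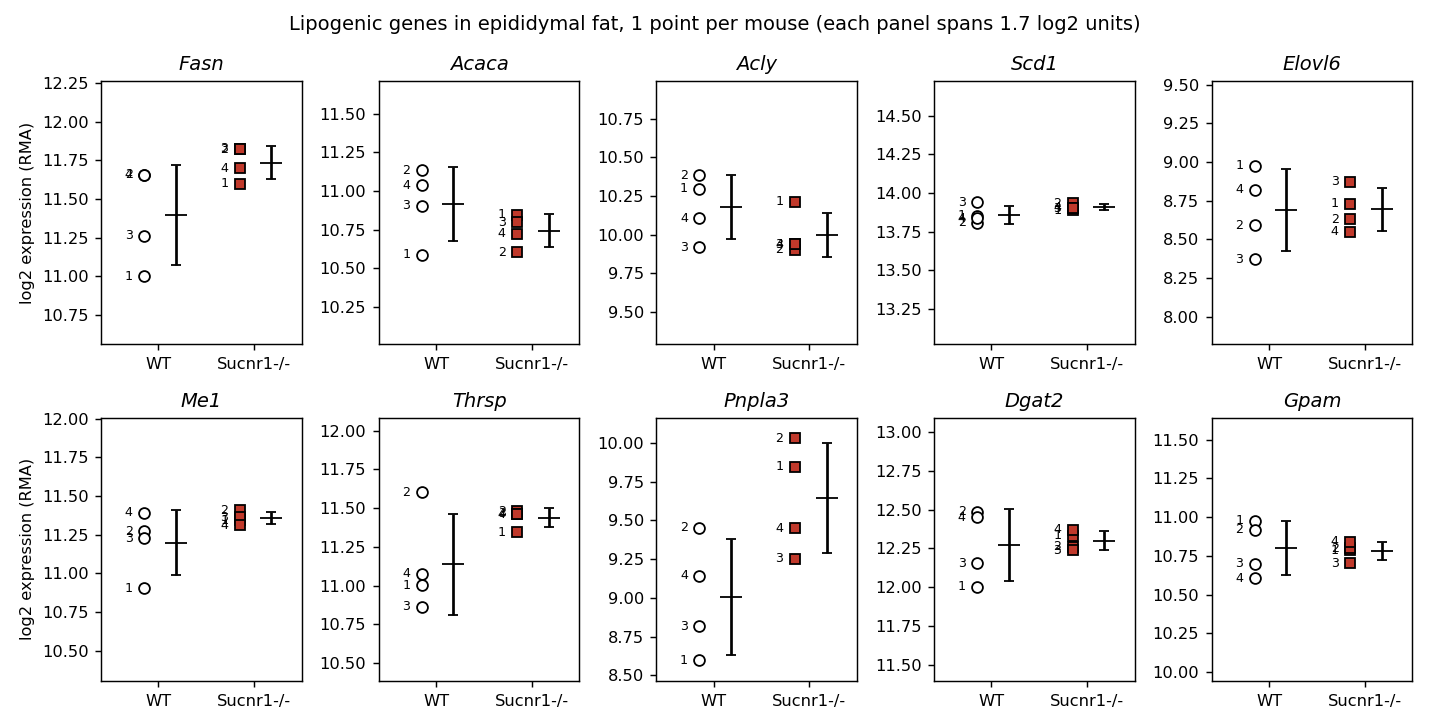
Log2 expression (RMA) of the 10 genes, with 1 point per mouse, numbered by replicate, and bars for the mean ± SD of 4 mice. All panels span the same 1.7 log2 units; the WT mice (circles) are more spread than the Sucnr1-/- mice (squares) in most panels, and no panel separates the genotypes.

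The genes that finish the fatty acid showed no difference beyond the spread between mice. Scd1 encodes the stearoyl-CoA desaturase that introduces the double bond of oleate. It was expressed at 13.85, 13.81, 13.94 and 13.84 in WT and at 13.89, 13.93, 13.90 and 13.91 in Sucnr1-/- mice. The difference was 0.05 (SE 0.06, 95% interval −0.08 to 0.17; limma, adjusted p = 0.828). Its readings were close to the highest value on any array, 14.53, and saturation of the signal was not tested. Elovl6 encodes the elongase that takes palmitate to stearate, and stood at 8.98, 8.59, 8.37 and 8.82 in WT against 8.73, 8.63, 8.87 and 8.55 in Sucnr1-/- mice. Its means were equal within 0.01 (SE 0.13; limma, adjusted p = 0.995), with a 95% interval of −0.30 to 0.31 that leaves room for differences as large as that of Thrsp. All 4 knockout mice lay inside the WT range.

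At the entry to glycerolipid synthesis stands Gpam, the mitochondrial glycerol 3-phosphate acyltransferase that attaches the first acyl chain. It read 10.98, 10.92, 10.70 and 10.61 in WT and 10.79, 10.80, 10.70 and 10.84 in Sucnr1-/- mice, a difference of −0.02 (SE 0.09, 95% interval −0.23 to 0.19; limma, adjusted p = 0.965). Dgat2, an acyltransferase of the last step to triacylglycerol, read 12.003, 12.49, 12.16 and 12.45 in WT and 12.33, 12.26, 12.24 and 12.37 in knockout mice. Its difference was 0.03 (SE 0.11, 95% interval −0.23 to 0.28; limma, adjusted p = 0.959), and all 4 knockout mice lay between WT mice 3 and 4. In both genes the WT mice covered a wider range than the knockout mice.

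Pnpla3, also called adiponutrin, encodes a lipid droplet protein with acylhydrolase and acyltransferase activity in vitro, and is known as a feeding- and SREBP-1c-responsive gene. It had the largest difference of the 10. Expression was 8.60, 9.45, 8.82 and 9.14 in WT mice 1 to 4 (mean 9.003 ± 0.38, SD, n = 4) and 9.85, 10.03, 9.25 and 9.45 in Sucnr1-/- mice 1 to 4 (mean 9.64 ± 0.36, SD, n = 4). Knockout mice 1 and 2 lay above every WT mouse, while knockout mice 3 and 4 lay between WT mice 4 and 2 or level with mouse 2. The difference was 0.64 (SE 0.22, 95% interval 0.14 to 1.14), a fold of 1.56 (limma, adjusted p = 0.712), and the exact permutation p was 0.0857. It stayed between 0.51 and 0.79 when each mouse was left out in turn.

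The spread between mice was compared as well. The SD among WT mice exceeded that among Sucnr1-/- mice in 10 of the 10 genes, where this held for 58.3% of all genes. The median SD of the members was 0.24 in WT and 0.08 in Sucnr1-/- mice, against 0.13 and 0.12 over all genes. WT mouse 1 was the lowest of all 8 mice for 5 members (Fasn, Acaca, Me1, Pnpla3 and Dgat2) and the highest for 2 (Elovl6 and Gpam), and WT mouse 2 was the highest for 4. Without WT mouse 1 the WT SD was still the larger in 9 of 10 members, while the share of all genes was 46.0%. Of 21 measured adipocyte markers 20 had the larger SD in WT mice, and 9 of 21 without WT mouse 1. The pattern was noticed after the values were seen and was not tested.

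**Figure D3:**
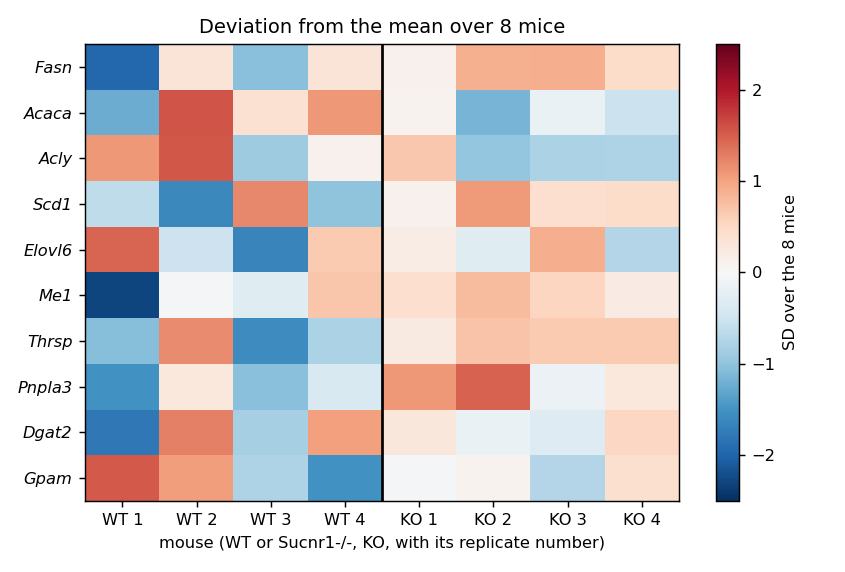
Deviation of each gene in each mouse from its mean over 8 mice, in SD units over the 8 mice (blue low, red high). WT mouse 1 is the lowest mouse for 5 genes and WT mouse 2 the highest for 4, and the knockout columns are paler; the mean over the 10 genes was −0.64, 0.50, −0.65 and 0.02 in WT mice 1 to 4 and 0.31, 0.24, 0.13 and 0.09 in the knockout mice.

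Fasn was then set against the other 9 members and Srebf1, Mlxipl and Pparg over the 8 mice, 12 relations in all. Me1 followed it most closely (Pearson r = 0.912, exact permutation p = 0.0033, adjusted over the 12 relations 0.040; Spearman rho = 0.786, exact permutation p = 0.028, adjusted 0.335). On deviations from the genotype means r was 0.882, but without WT mice 1 and 3, the mice farthest from the median of Fasn, it was 0.461 (exact permutation p = 0.35, n = 6), over a narrower range of Fasn. Without WT mouse 1 alone r was 0.775 (exact permutation p = 0.031) and without WT mouse 3 alone 0.956. The p adjusted over the 12 relations was above 0.05 in 7 of the 8 fits that left out 1 mouse, from 0.052 to 0.249 by exact permutation. Pnpla3 and Thrsp had r of 0.777 and 0.772 with Fasn (exact permutation p = 0.022 and 0.023, both adjusted to 0.092; rho 0.5 and 0.667 with exact p of 0.216 and 0.083), which became 0.081 and 0.327 without the same mice. The relation with Dgat2 changed sign on leaving them out, from 0.708 (exact permutation p = 0.052, adjusted 0.156; rho 0.310, exact p = 0.462) to −0.718. Acly (r = −0.366, exact permutation p = 0.392; rho −0.5, exact p = 0.216) and Gpam (r = −0.396, exact permutation p = 0.328; rho −0.238, exact p = 0.582) ran against Fasn without passing the test. The remaining relations had r between −0.12 (Elovl6) and 0.57 (Pparg), with adjusted p of 0.216 or more by exact permutation, and rho between −0.33 (Mlxipl) and 0.31 (Pparg), with adjusted p of 0.792 or more by exact permutation. On deviations from the genotype means r was higher for Acaca (0.752), Dgat2 (0.847), Pparg (0.657), Srebf1 (0.562), Mlxipl (0.207) and Acly (−0.073). It was lower for Thrsp (0.634), Pnpla3 (0.600), Elovl6 (−0.169), Scd1 (−0.380) and Gpam (−0.448). These r on deviations were not tested. Of the 45 pairs among the 10 members, 24 had a positive r, 11 an r above 0.5 and 3 an r below −0.5.

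**Figure D4:**
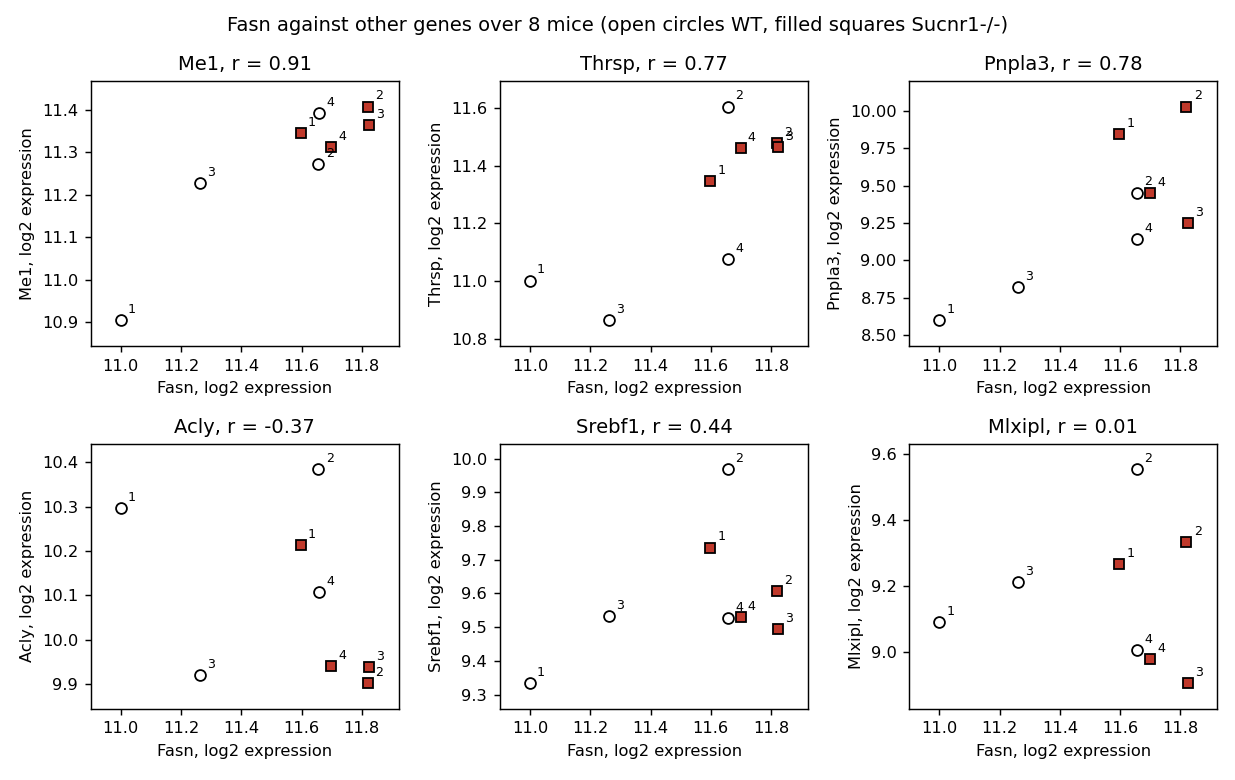
Log2 expression of Fasn (x axis) against 6 other genes (y axis) in 8 mice, with open circles for WT and filled squares for Sucnr1-/- mice, numbered by replicate. Me1 climbs with Fasn (r = 0.91) through WT mice 1 and 3 at the lower left, and Mlxipl shows no trend (r = 0.01).

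The factors Srebf1, Mlxipl, Nr1h3 and Pparg, known to drive the pathway, differed by less than the SD within either genotype. Srebf1, which encodes SREBP-1, was expressed at 9.33, 9.97, 9.53 and 9.53 in WT and at 9.74, 9.61, 9.49 and 9.53 in Sucnr1-/- mice. Its difference was 0.00 (95% interval −0.29 to 0.30; limma, adjusted p = 0.999), with all 4 knockout mice inside the WT range. Mlxipl, which encodes ChREBP, read 9.09, 9.55, 9.21 and 9.01 in WT and 9.27, 9.33, 8.90 and 8.98 in Sucnr1-/- mice, a difference of −0.10 (SE 0.14). The array reads neither the cleavage of SREBP nor the isoforms of either factor apart. Nr1h3, the gene for the liver X receptor alpha, differed by −0.12 (SE 0.09), Pparg, the adipogenic nuclear receptor, by 0.02 (SE 0.09), and Insig1, which retains the SREBP complex in the endoplasmic reticulum, by −0.12 (SE 0.13). Of 24 measured regulators 12 had a higher and 12 a lower mean, and 0 reached an unadjusted p under 0.05 in limma. The smallest p values in that list belonged to Nfyb, a subunit of NF-Y (−0.20, SE 0.10), Mlx, the partner of ChREBP (−0.24, SE 0.13), Insig2 (0.19, SE 0.12) and Prkaa1, a catalytic subunit of AMP-activated kinase (0.13, SE 0.10). The differences of Nfyb and Mlx were larger than the SD within either genotype.

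Other genes of the pathway were read from lists written for it. Among 17 measured genes that supply citrate, acetyl-CoA and NADPH, 13 had a higher mean in Sucnr1-/- fat and 4 reached an unadjusted p under 0.05, all higher. These were Slc25a10, the mitochondrial dicarboxylate carrier, at 0.41 (SE 0.16), the insulin-responsive glucose transporter Slc2a4 at 0.35 (SE 0.14), the acetyl-CoA synthetase Acss2 at 0.30 (SE 0.13) and the cytosolic malate dehydrogenase Mdh1 at 0.17 (SE 0.06). The Mdh1 values, 11.51, 11.70, 11.65 and 11.71 in WT and 11.77, 11.81, 11.86 and 11.80 in Sucnr1-/- mice, did not overlap between genotypes. The adjusted p in limma was 0.712 or more for each of the 4. WT mouse 1 was the lowest of the 8 mice for each of these 4, and the median of all 17 genes was 0.09.

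Among 18 measured elongases, desaturases and their partner enzymes 14 had a lower mean, with a median of −0.11. Hacd3, a dehydratase of the elongation cycle, read from 9.19 to 9.32 in WT and from 8.83 to 9.11 in Sucnr1-/- mice without overlap (−0.30, SE 0.07; limma, adjusted p = 0.712). Elovl5, an elongase of polyunsaturated chains, differed by −0.18 (SE 0.07), and these 2 were the only genes of the list at an unadjusted p under 0.05. Elovl1 differed by −0.23 (SE 0.12), Fads6 by −0.16 (SE 0.09), and Scd2 by 0.04 (SE 0.12).

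Glycerol 3-phosphate and triacylglycerol synthesis divided within its own steps. Of 19 measured genes 12 had a higher mean, and 2 in each direction reached an unadjusted p under 0.05. Gpat4, an acyltransferase of the endoplasmic reticulum for the same step as Gpam, differed by 0.33 (SE 0.11), and Mogat1, a monoacylglycerol acyltransferase, by 0.50 (SE 0.19). The Mogat1 values were 6.83, 7.86, 7.44 and 7.66 in WT mice 1 to 4 and ran from 7.89 to 8.00 in Sucnr1-/- mice. They did not overlap, but WT mouse 2 lay just below the knockout mice and WT mouse 1 well below the other WT mice. Agpat5 and Agpat4, which belong to the family of lysophosphatidic acid acyltransferases, had lower means, by −0.37 (SE 0.10, no overlap) and −0.35 (SE 0.14). Dgat1, which acts beside Dgat2, differed by 0.11 (SE 0.11). The adjusted p in limma was 0.712 or more for each of these 5.

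The 11 measured accessory genes of fatty acid synthesis and activation were split, 5 with a higher and 6 with a lower mean. Acacb, the mitochondrial carboxylase whose malonyl-CoA restrains fatty acid oxidation, differed by 0.06 (SE 0.15), and Mid1ip1, the relative of Thrsp, by −0.09 (SE 0.08). The gene Acsl5, an acyl-CoA synthetase, had a lower mean without overlap (−0.15, SE 0.06), and Acsl4 differed by −0.42 (SE 0.23). Nnat, an endoplasmic reticulum proteolipid, had the smallest p of the list. It read 12.51, 12.69, 12.65 and 12.90 in WT and 12.98, 13.19, 13.02 and 13.13 in Sucnr1-/- mice, without overlap (0.39, SE 0.09; limma, adjusted p = 0.712). Nnat is not a fatty acid synthesis enzyme, and its place in the list was an error of the list. The count of 5 higher means includes Nnat, the only one of them at an unadjusted p under 0.05 in limma or without overlap.

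**Figure D5:**
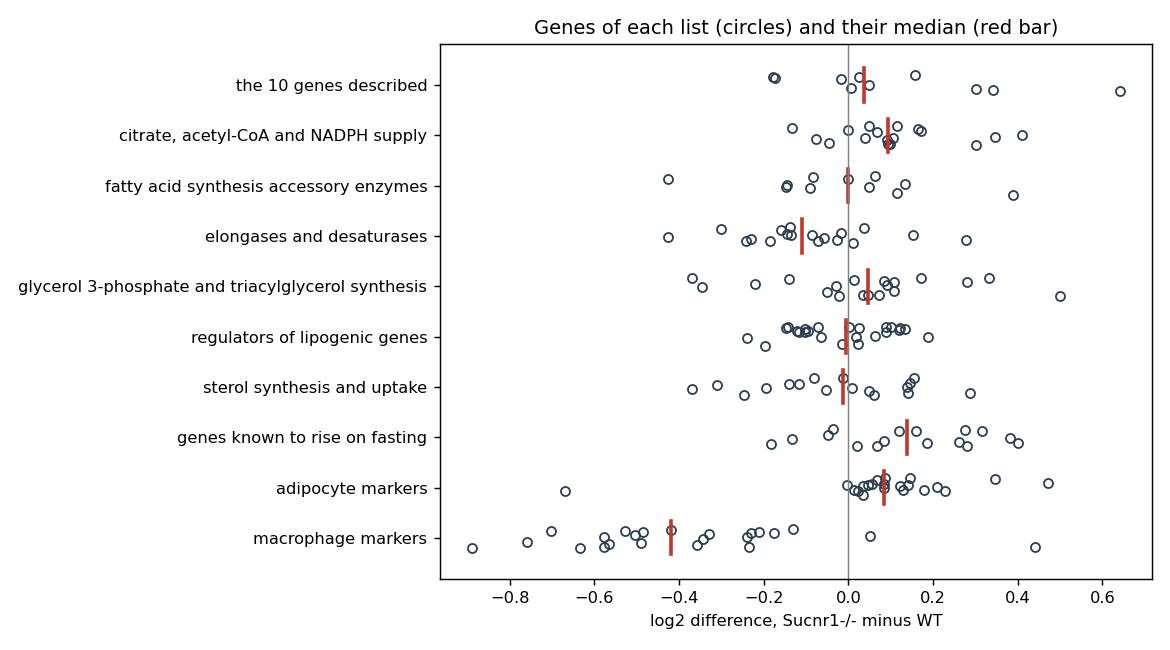
Log2 differences, Sucnr1-/- minus WT, of the measured genes in each list (circles) with the list median (red bar). The 10 genes have a median of 0.04, the elongases and desaturases −0.11, the adipocyte markers 0.08 and the macrophage markers −0.42.

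For comparison, sterol genes, which share SREBP as a regulator, had 8 higher and 9 lower means among 17. Hmgcs1 (−0.37, SE 0.15) and Mvd (−0.31, SE 0.11), both of the mevalonate pathway, reached an unadjusted p under 0.05 with a lower mean, whereas Fdft1, the squalene synthase, differed by 0.29 (SE 0.14) and Cyp51 by −0.25 (SE 0.12). Among 16 measured genes known to rise on fasting 12 had a higher mean, with a median of 0.14 and 0 at an unadjusted p under 0.05. Within it Ppargc1a differed by 0.40 (SE 0.25), Klf15 by 0.38 (SE 0.22), Foxo3 by 0.28 (SE 0.16) and Acot1 by −0.18 (SE 0.10). Acot1 did not overlap between genotypes, from 5.18 to 5.59 in WT and from 5.05 to 5.16 in Sucnr1-/- mice, all below the array medians. WT mouse 1 had the lowest list mean of the 8 mice, at 9.69. The other WT mice ran from 9.94 to 10.2 and the Sucnr1-/- mice from 9.95 to 10.3. WT mouse 1 was low for Ppargc1a as well (6.75, against 7.65 to 7.70 in the other WT mice) and for Klf15 (8.19, against 8.94 to 9.05).

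Markers of cell types also differed between these mice. Of 21 measured adipocyte markers 19 had a higher mean in Sucnr1-/- fat, with a list mean from 11.82 to 12.21 in WT and from 12.05 to 12.15 in knockout mice, and WT mouse 1 was the lowest. Of 23 macrophage markers 21 had a lower mean and 8 an unadjusted p under 0.05 in that direction. Their list mean ran from 9.75 to 10.3 in WT and from 9.45 to 9.80 in Sucnr1-/- mice, with WT mouse 1 the highest. All 15 measured lymphocyte markers and all 8 mast cell markers had lower means, and immediate early genes were highest in WT mouse 1 (list mean 9.24) and knockout mouse 1 (8.94), against 8.16 to 8.58 in the other 6. Epididymis markers averaged from 4.32 to 4.69 and skeletal muscle markers from 5.61 to 5.76, below the array medians of 6.28 to 6.36 but above the lowest value on any array, 2.57. Subtracting the adipocyte marker mean of each array lowers the difference of every gene by the same 0.087. Relative to those markers 4 of the 10 lipogenic genes had a higher mean in Sucnr1-/- mice, against 25.1% of all genes (Pnpla3 0.55, Fasn 0.25, Thrsp 0.21 and Me1 0.07), and Scd1, Dgat2 and Elovl6 stood at −0.04, −0.06 and −0.08. The part of cell composition and of early gene expression in these differences was not tested.

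Over the 8 mice, the genes that ran most nearly with the mean standardised value of the 10 members were Plppr1 (Pearson r = 0.973), Gldn (0.960), Nrtn (0.952), Sohlh1, Gcg, Epb41l1, Amt, Chkb, Gpd2 and Pex26 (0.927). Plppr1, Gldn, Nrtn, Sohlh1, Gcg, Amt and Chkb read below the array medians in every mouse, Gldn from 4.32 to 4.61 and Gcg from 4.58 to 4.88. Only Epb41l1 (9.69 to 10.2) and Gpd2 (8.87 to 9.27) stood well above those medians. Gpd2 encodes the mitochondrial glycerol 3-phosphate dehydrogenase. The genes that ran most strongly against the mean of the members were Nceh1, a neutral cholesterol ester hydrolase (−0.987), Blnk, a B cell adaptor (−0.973), and Csf2ra, a myeloid growth factor receptor subunit (−0.971). With 18820 genes and 8 mice, extremes of this size are a description of these arrays alone.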

How the data were processed

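RNA with an integrity number above 8, per the labels, was amplified with a whole-transcript kit. The authors deposited 1 table of log2 expression values made by robust multi-array average (RMA), in which background is corrected, the arrays are normalized together and probes are combined into probe sets. Differences in total signal are thereby removed and extreme values compressed. The version of RMA, the genome build and the dates of hybridisation were not given in the sources used here, so no batch could be examined. Replicates were separate mice by their labels, and 4 arrays a group limit the precision.

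Of 35556 probe sets, 21218 had exactly 1 gene symbol, 1881 had several and were not used, and 12457 were unnamed in the annotation used here. For 1386 genes the probe set of highest mean was taken. No gene was left out as dim. Of the 21218, 21185 were matched to RefSeq by Entrez ID, with 0 symbols renamed. Genotypes were compared by limma 3.58.1 (R 4.3.3, lmFit and eBayes, 2.66 prior degrees of freedom) with Benjamini-Hochberg adjustment over 18820 genes at 0.05. Members were also tested by exact two-sided permutation of 4 against 4, and correlations in Python 3.11.15 by exact two-sided permutation over all pairings. The procedure was tested on simulated data. Figures were drawn with matplotlib 3.10.9.

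The members, lists and tests were chosen with earlier results of these data known. Named were the 10 members, Sucnr1, up to 4 genes of each pathway or comparison list by smallest p, 10 fixed pathway genes, and the 10 genes most like and 3 least like the members. Each fit was repeated with an intensity-dependent prior, array weights, quantile normalization, median centring, the replicate number as a block, averaged probe sets of a gene, the adipocyte marker mean subtracted, the dimmest 40% of genes removed, each array left out, and with the t-test of the study's methods. Median centring over named genes was chosen after seeing the data. Some listed genes are not analysed here.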

Additional observations from a re-analysis of the deposited data

Results flagged for a closer look

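A single mouse stood apart from the other 3 of its genotype, with a gap to its nearest neighbour above Dixon's 95% critical value as a share of the group's range, in 7 of 122 groups of 4 values examined; chance flags about 1 in 20 groups. Among the members these were Acly in Sucnr1-/- mouse 1, at 10.214 against 9.902 to 9.940 in the other 3, and Thrsp in Sucnr1-/- mouse 1, at 11.345 against 11.460 to 11.479. Among the other named genes, WT mouse 1 was low for Mid1ip1 (7.561), Ppargc1a (6.752) and Klf15 (8.194), WT mouse 3 was high for Acot1 (5.586), and Sucnr1-/- mouse 2 was high for Aacs (10.313).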

How the results depend on the processing

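No member was called at an adjusted p under 0.05 in any of 18 alternatives, and Pnpla3 (0.51 to 0.79), Fasn (0.21 to 0.43), Thrsp (0.21 to 0.46), Me1 (0.06 to 0.22), Acaca (−0.28 to −0.10) and Acly (−0.27 to −0.11) kept their sign in all of them. The members near 0 did not, in part under scalings that shift all genes alike: 42.6% of all genes were higher with median centring, 66.0% with median centring over named genes and 25.1% with the adipocyte subtraction, against 53.2%. The intensity-dependent prior, the t-test, the removal of dim genes and the replicate block leave each difference unchanged, so they could not reverse a sign. Averaging probe sets could not do so for members with 1 probe set. Dgat2 was −0.031 with array weights, −0.0043 with median centring and −0.061 with the adipocyte marker mean subtracted; Elovl6 was −0.024 with median centring and −0.081 with the adipocyte subtraction, which also gave Scd1 −0.038 and left 4 members with a higher mean. Gpam was 0.023 with median centring over named genes. Leaving out each mouse gave −0.064 to 0.097 for Dgat2, −0.10 to 0.101 for Elovl6 and −0.082 to 0.041 for Gpam. Over all genes, those higher and lower at an unadjusted p under 0.05 in limma were 652 and 632, 355 and 979 with median centring, 1352 and 330 with median centring over named genes, and 369 and 535 without the dimmest 40%. Without a mouse they ranged from 440 to 870 and from 368 (without Sucnr1-/- mouse 2) to 885. Fasn lost its unadjusted p under 0.05 with median centring (0.069), the methods' t-test (0.091), the dimmest 40% removed (0.052), the adipocyte subtraction (0.068) and without WT mouse 1 or 3 or Sucnr1-/- mouse 2, 3 or 4, and Pnpla3 without Sucnr1-/- mouse 2 (limma, 0.053). The cause of these shifts was not tested. Same-numbered mice of the 2 genotypes correlated at 0.454, 0.141, 0.106 and 0.015, with 3 of 4 above 0.1. The labels do not say that the numbers pair mice, and the mice were not treated as paired. WT mouse 1 and Sucnr1-/- mouse 1 were each the highest of their genotype in the list mean of immediate early genes (9.24 and 8.94). The same held for lymphocyte markers (7.77 and 7.06), and the reason was not tested. The replicate block gave 809 higher and 1096 lower genes; no member was called at an adjusted p, and Thrsp joined Pnpla3 and Fasn at an unadjusted p under 0.05 (limma, 0.0487). For Pearson r with Fasn, leaving out the 2 farthest mice gave −0.612 for Acaca, 0.164 for Elovl6, −0.718 for Dgat2, −0.491 for Srebf1, −0.279 for Mlxipl and −0.013 for Pparg, and deviations from the genotype means gave −0.380 for Scd1. Leaving out each mouse gave −0.364 to 0.460 for Acaca, −0.176 to 0.389 for Scd1, −0.593 to 0.697 for Elovl6, −0.612 to 0.202 for Gpam and −0.182 to 0.228 for Mlxipl. With 4 arrays a group the intervals were wide, that of Pnpla3 from 0.14 to 1.14.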
